A study of Mus musculus with 10 samples.

Results

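The genes described here encode the initiation factors eIF1 to eIF6 and the elongation factors eEF1 and eEF2, together with the few regulators that share those gene symbols. They were chosen by symbol: every gene named through a RefSeq accession whose symbol starts with Eif1 to Eif6, Eef1 or Eef2, leaving out the Eif2ak kinases, the Eif4ebp repressors, the Eef1akmt methyltransferases and predicted genes. The rule found 58 genes among the 19752 with a probe, measured by 83 of 55681 probes. Of the 74 symbols in the reference that fit the rule, 59 are protein coding, and Eif3j2, 14 pseudogenes and 1 lncRNA had no probe. The rule uses no measured value.

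Initiation factors bring the small ribosomal subunit, the initiator tRNA and the messenger RNA together. eIF2 carries the initiator tRNA as a complex with GTP, and eIF2B recharges eIF2 with GTP after each round. Phosphorylation of the alpha subunit of eIF2 by a kinase such as PERK turns eIF2 into an inhibitor of eIF2B, which lowers general protein synthesis and starts the integrated stress response. eIF3 is the scaffold on the small subunit, eIF4F (eIF4E, eIF4A and eIF4G) recognises the cap and unwinds the messenger, and eEF1 and eEF2 then drive elongation. Muscle fibres switch from the elongation factor gene Eef1a1 to Eef1a2 as they mature.

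RNA was measured on single-colour Agilent mouse arrays in 10 samples, 2 in each of 5 groups. Muscle came from male C57BL/6J mice. The first group was wild type (WT) and untreated. The second and the third were transgenic (TG) hSA::Fv2E-PERK mice, collected 12 h after an intraperitoneal injection of vehicle or of AP20187 at 1 ng/g. Fv2E-PERK is a fusion of PERK with a domain that pairs when AP20187 binds it, and hSA is the skeletal actin promoter that drives it in muscle fibres. The fourth and the fifth were C2C12 mouse myoblasts carrying Fv2E-PERK, kept in medium with 10% fetal bovine serum, moved to 2% horse serum for a 3-day differentiation and collected 12 h after vehicle or AP20187 at 100 nM. All groups but the wild type carry the fusion, and the wild type mice were not injected, so that no group shows AP20187 without the fusion. The labels give no age, no muscle and no statement on whether samples of a group came from separate animals or cultures, so p-values measure the spread between these samples, which may be technical.

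A level below is the log2 of a probe's intensity minus the 75th percentile of its array, and a change is a difference of mean levels with its standard error (SE) from limma. A change was called when its Benjamini-Hochberg adjusted p, over all genes tested in that comparison, was under 0.05. Levels of different genes are on different probes and were not compared. The wild type arrays lay on a slide of their own and were scanned in a session of their own, while both transgenic groups shared a session and the C2C12 arrays shared another. A session here is a distinct scan date entry in the file headers. The file names carry the same leading digits for all muscle arrays and others for C2C12. Whether wild type and transgenic arrays were separate batches is therefore not known here. The transgenic vehicle arrays lay in slide column 1 and the AP20187 arrays in columns 3 and 4, so column and treatment cannot be told apart. The file headers give transgenic and C2C12 arrays the same slide, with 2 positions repeated across those sessions, and what this stands for is not known here. Gene spots well above background made up 41.0% to 53.1% per array, and muscle markers were above background for 7 of 7 genes on all muscle arrays. Of the 58 genes, 49 had a value on every array and 9 lacked values on some C2C12 arrays, where spots with an outlier flag were left out. Flags marked 2.37% and 2% of gene spots on the C2C12 AP20187 arrays, against 0.376% and 0.278% on the C2C12 vehicle arrays. Each of the 9 lacked an AP20187 value, and only Eif3c also lacked a vehicle value. For Eef1a1, Eef1g, Eif2s2, Eif4a2 and Eif4e a brighter probe lacked an AP20187 value, so a dimmer probe was used. Eif4e1b, for a variant cap-binding protein, was not well above background on any array and was not tested.

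**Figure D1:**
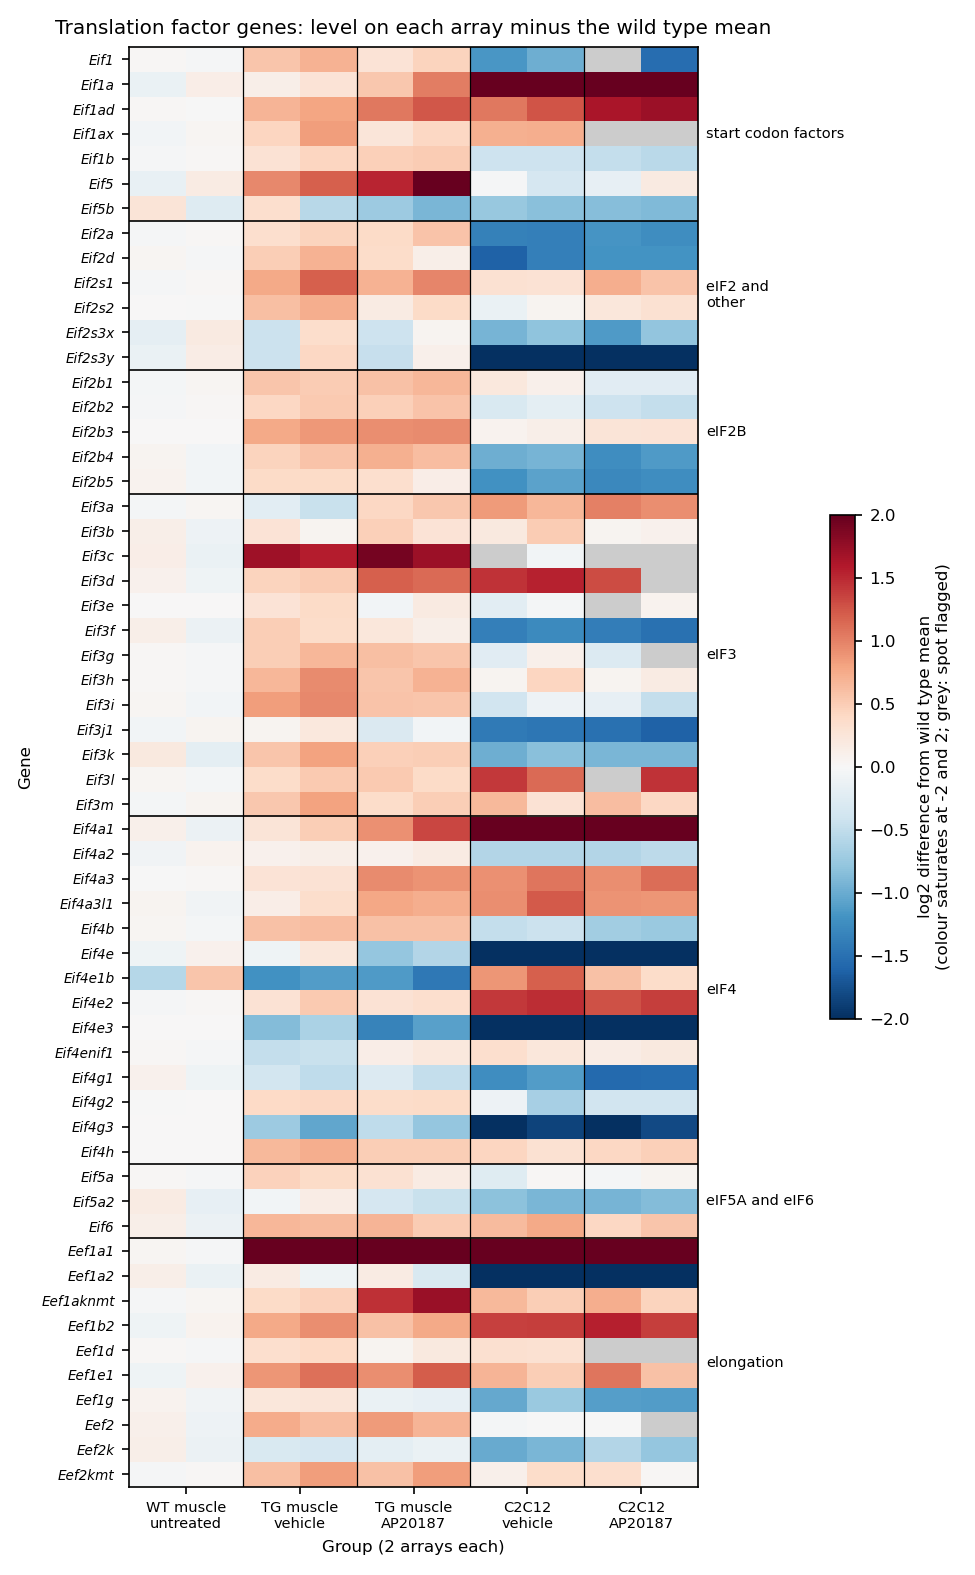
Level of each of the 58 genes on each of the 10 arrays, drawn as the log2 difference from the mean of the 2 wild type arrays, with genes grouped by complex and grey where a spot was flagged. 38 genes were called higher in transgenic vehicle than in wild type muscle, Eef1a1 is at the red end of the scale in every transgenic and C2C12 array, and Eef1a2 and Eif2s3y are at the blue end in C2C12.

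The first comparison set muscle of transgenic mice given AP20187 against that of transgenic mice given vehicle. The genes that rose include the eIF3 subunit genes Eif3a and Eif3d, the helicases Eif4a1 and Eif4a3, and the start codon factors Eif5 and Eif1a, by 0.60 to 0.81, and the cap-binding Eif4e fell by 0.75. No gene of the nucleotide exchange factor eIF2B was called. Of 57 genes tested 15 were called, against 29.3% of all genes tested: 10 rose (17.5%, against 14.3% of all genes tested) and 5 fell (8.77%, against 15%). The median change was -0.02, against -0.11 over all genes tested. With quantile normalization 12 rose and 1 fell (all genes 2074 and 1201), and with the values the authors deposited, 10 genes rose and 2 fell (all genes 2114 and 1483). With the replicate number as a block in the fit, 11 rose and 12 fell, against 18% and 23.3% of all genes tested. Leaving out any single array gave fewer calls, among the factor genes and over all genes. Without vehicle replicate 2 the median change was 0.03, against -0.1 over all genes tested, and without vehicle replicate 1 it was -0.07 against -0.11. Without AP20187 replicate 1 or 2 it was -0.02, against -0.11 and -0.1. Markers of macrophages moved in the same comparison: 8 of 9 tested were lower after AP20187 (median -0.96), their summed level, in units of the array's 75th percentile, was 20.4 to 20.8 against 34.7 to 38.8 after vehicle, and all 9 genes with a probe were above background in every muscle group. Of 6 markers of myoblasts and myotubes, 2 were higher (Myog 3.44 and Myod1 0.58) and 1 lower (Myh8 -0.52), with a summed level of 246 to 250 against 200 to 219. Their part in the changes below was not tested. In muscle RNA, fewer cells of a type and less RNA per cell cannot be told apart.

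The genes that rose include 3 that hold the sequence CACGTG in their promoter, the site read by MYC and other E-box factors, and Eif4e, which fell, holds it in 1 of its 2 listed promoters, the 1 shown. They are shown here because these members changed in the same comparison. Each sequence runs from 250 bases before to 50 bases after the annotated start (RefSeq, GRCm38.p6), 5′ to 3′ on the gene's strand, with CACGTG in capitals.
Eif4a1 promoter, chr11:69672374-69672673, minus strand: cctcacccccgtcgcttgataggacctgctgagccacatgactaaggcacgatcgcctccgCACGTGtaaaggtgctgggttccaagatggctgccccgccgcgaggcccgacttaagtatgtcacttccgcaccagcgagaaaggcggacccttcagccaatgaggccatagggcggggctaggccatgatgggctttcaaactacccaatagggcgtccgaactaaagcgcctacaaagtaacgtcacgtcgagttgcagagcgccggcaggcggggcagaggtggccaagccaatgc
Eif3a promoter, chr19:60790644-60790943, minus strand: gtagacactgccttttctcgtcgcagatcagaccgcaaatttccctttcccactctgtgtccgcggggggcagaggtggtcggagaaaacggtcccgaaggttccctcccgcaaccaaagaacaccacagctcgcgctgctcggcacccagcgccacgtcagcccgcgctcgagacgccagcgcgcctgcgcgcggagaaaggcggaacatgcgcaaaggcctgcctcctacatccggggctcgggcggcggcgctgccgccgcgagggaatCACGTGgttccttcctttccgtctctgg
Eef1aknmt promoter, chr1:162548296-162548595, minus strand: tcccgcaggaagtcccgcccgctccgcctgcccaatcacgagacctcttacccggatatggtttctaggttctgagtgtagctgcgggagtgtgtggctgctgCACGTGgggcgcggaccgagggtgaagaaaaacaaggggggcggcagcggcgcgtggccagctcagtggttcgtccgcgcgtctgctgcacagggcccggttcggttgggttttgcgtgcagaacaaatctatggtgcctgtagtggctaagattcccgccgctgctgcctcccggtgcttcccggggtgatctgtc
Eif4e promoter, chr3:138527018-138527317, plus strand: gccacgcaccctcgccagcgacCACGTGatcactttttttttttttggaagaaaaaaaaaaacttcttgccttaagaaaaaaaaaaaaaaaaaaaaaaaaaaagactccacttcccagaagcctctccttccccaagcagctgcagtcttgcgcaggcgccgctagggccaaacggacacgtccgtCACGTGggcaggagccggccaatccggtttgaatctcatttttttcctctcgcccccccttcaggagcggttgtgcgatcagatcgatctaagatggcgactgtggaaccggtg
CACGTG, which reads the same on both strands, was in a promoter of 13 of the 47 genes that have an entry (27.7%), against 2187 of 27025 genes with a promoter in the table (8.09%). It was in 3 of 9 genes that rose with AP20187 and in 9 of 36 that did not pass the test. The letters TGATGNAAN, the form read by ATF4 with CHOP, searched on both strands, were in 2 of 47 (4.26%) against 4.5% of all, and in 0 of the 9 that rose. The letters CCGGAAG, the ETS site, searched on both strands, were in 15 of 47 (31.9%) against 9.93%. No motif contains another. They were picked with these results known, and a match is a description of the window only.

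Among start codon factors, 3 of 7 rose with AP20187 and 0 fell. Eif5, the GTPase activator of eIF2, read 5.08 and 5.31 on the vehicle arrays and 5.65 and 6.19 on the AP20187 arrays. Its change was 0.73 (SE 0.19, adjusted p = 0.0241), and its second probe gave 1.04. Eif1a, one of the genes for the scanning factor eIF1A, read 1.33 and 1.49 against 1.76 and 2.25, a change of 0.60 (SE 0.18, adjusted p = 0.0387). The groups did not overlap for either gene, but both calls were lost when AP20187 replicate 2 was left out (Eif5 0.46 and Eif1a 0.35), vehicle replicate 1 (0.62 and 0.52) or vehicle replicate 2 (0.84 and 0.68). Eif1ad, whose protein only shares a domain with eIF1A, changed by 0.41 (SE 0.10, adjusted p = 0.0220), with the call lost at 0.31 to 0.46 without AP20187 replicate 2 or either vehicle array. Eif1, the partner of eIF1A in start codon selection, had -0.27 (SE 0.10, adjusted p = 0.0787). Eif5b, the subunit joining factor, was above background on 1 of 2 vehicle arrays and on neither AP20187 array, with a change of -0.72 (SE 0.43, adjusted p = 0.229).

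Of 6 genes of eIF2 and related factors 0 rose and 1 fell, and of 5 eIF2B genes none was called. Eif2s1, the alpha subunit that PERK phosphorylates, read 4.15 and 4.59 after vehicle and 4.10 and 4.37 after AP20187, a change of -0.13 (SE 0.16, adjusted p = 0.541) with overlapping groups. Eif2s2, the beta subunit, read 3.78 and 3.91 against 3.35 and 3.57 and was called lower at -0.39 (SE 0.11, adjusted p = 0.0316). Its brighter probe, which lacked a C2C12 array, gave 0.05 for the same muscle arrays, so the 2 probes of Eif2s2 disagree. The call was also lost without AP20187 replicate 1 (-0.27), without either vehicle array (-0.45 and -0.32) and without either wild type array (-0.39). The gamma subunit genes had -0.14 (Eif2s3x) and -0.17 (Eif2s3y) with SEs of 0.27 and 0.28. The eIF2B genes Eif2b1, Eif2b2, Eif2b3, Eif2b4 and Eif2b5 changed by 0.10, 0.05, 0.14, 0.15 and -0.15 (SE 0.09 to 0.11), with adjusted p of 0.250 to 0.692.

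In eIF3, 2 of 13 genes rose and 1 fell. Eif3a, the largest scaffold subunit, read 2.30 and 2.06 after vehicle and 2.92 and 3.05 after AP20187. Its change was 0.81 (SE 0.11, adjusted p = 0.00301). Eif3d, the subunit that can bind a cap by itself, read 5.47 and 5.53 against 6.22 and 6.15, a change of 0.68 (SE 0.10, adjusted p = 0.00284). For both genes the AP20187 arrays lay above all vehicle arrays, and both calls held in every alternative tried. Eif3i fell by 0.34 (SE 0.09, adjusted p = 0.0302), a call lost at -0.27 to -0.35 when any array but vehicle replicate 1 was left out, and the other 10 genes lay between -0.31 and 0.21 without a call.

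The eIF4 genes gave 4 rises and 2 falls among 13. Eif4a1, the helicase of eIF4F, read 4.52 and 4.75 after vehicle and 5.18 and 5.59 after AP20187, a change of 0.75 (SE 0.15, adjusted p = 0.0115) that fell to 0.64 (adjusted p = 0.0567) without vehicle replicate 1. Its paralog Eif4a2 did not pass (0.02, SE 0.10, adjusted p = 0.883). Eif4a3, a helicase of the exon junction complex rather than of initiation, changed by 0.64 (SE 0.09, adjusted p = 0.00303), and its near-identical copy Eif4a3l1 by 0.51 (0.40 without vehicle replicate 1 and 0.49 without AP20187 replicate 1, neither called). Eif4enif1, which carries eIF4E and holds messengers in a repressed state, read 0.61 and 0.63 against 1.22 and 1.29, a change of 0.63 (SE 0.10, adjusted p = 0.00470). Wild type muscle read 1.11 and 1.06, so Eif4enif1 read lowest in transgenic vehicle muscle among the muscle groups. In the eIF4E family, Eif4e and Eif4e3 were called lower, Eif4e2 did not pass and Eif4e1b was not tested. Eif4e read 1.48 and 1.80 after vehicle and 0.80 and 0.98 after AP20187, a fall of 0.75 (SE 0.14, adjusted p = 0.00791), and its second probe gave -0.53. Without vehicle replicate 2 the change was -0.60 (adjusted p = 0.0501). Eif4e3 fell by 0.46 (SE 0.14, adjusted p = 0.0448), with the call lost at -0.33 to -0.57 when any array but AP20187 replicate 2 was left out. The scaffolds Eif4g1, Eif4g2 and Eif4g3 had 0.05, -0.04 and 0.25 and did not pass, and the second probe of Eif4g3 gave 0.85.

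Among 10 elongation genes, 1 rose and 1 fell. Eef1aknmt, which encodes a methyltransferase of eEF1A and not an elongation factor, read -0.78 and -0.70 after vehicle and 0.30 and 0.56 after AP20187, a change of 1.16 (SE 0.14, adjusted p = 0.00175), the largest of the set. Eef1g, a subunit of the eEF1B exchange factor, read 5.08 and 5.10 against 4.72 and 4.69 and fell by 0.39 (SE 0.09, adjusted p = 0.0172), a call lost at -0.37 to -0.40 without vehicle replicate 2 or either AP20187 array. Eef1a1 and Eef1a2, which deliver aminoacyl-tRNA, had -0.01 and -0.11, Eef1b2 and Eef1d of eEF1B had -0.18 and -0.24, Eef2, the translocase, had 0.09, and Eef2k, its inhibitory kinase, had 0.17, none of them called.

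Around these factors, 4 of 12 genes of the upstream controls tested were higher with AP20187 and 1 lower. Ppp1r15a, the phosphatase subunit that removes the phosphate from eIF2 alpha, changed by 4.01 (SE 0.12, adjusted p = 1.2e-05), Eif4ebp1, a repressor of eIF4E, by 0.62, and Eif2ak4, the kinase GCN2, by 0.81. None of the 6 poly(A)-binding genes passed. In termination and recycling, 1 of 8 rose (Pelo, 0.55) and 3 fell (Gspt1 -0.53, Mcts1 -0.55 and Denr -0.46). Mitochondrial factors gave 1 of 10 in each direction.

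**Figure D2:**
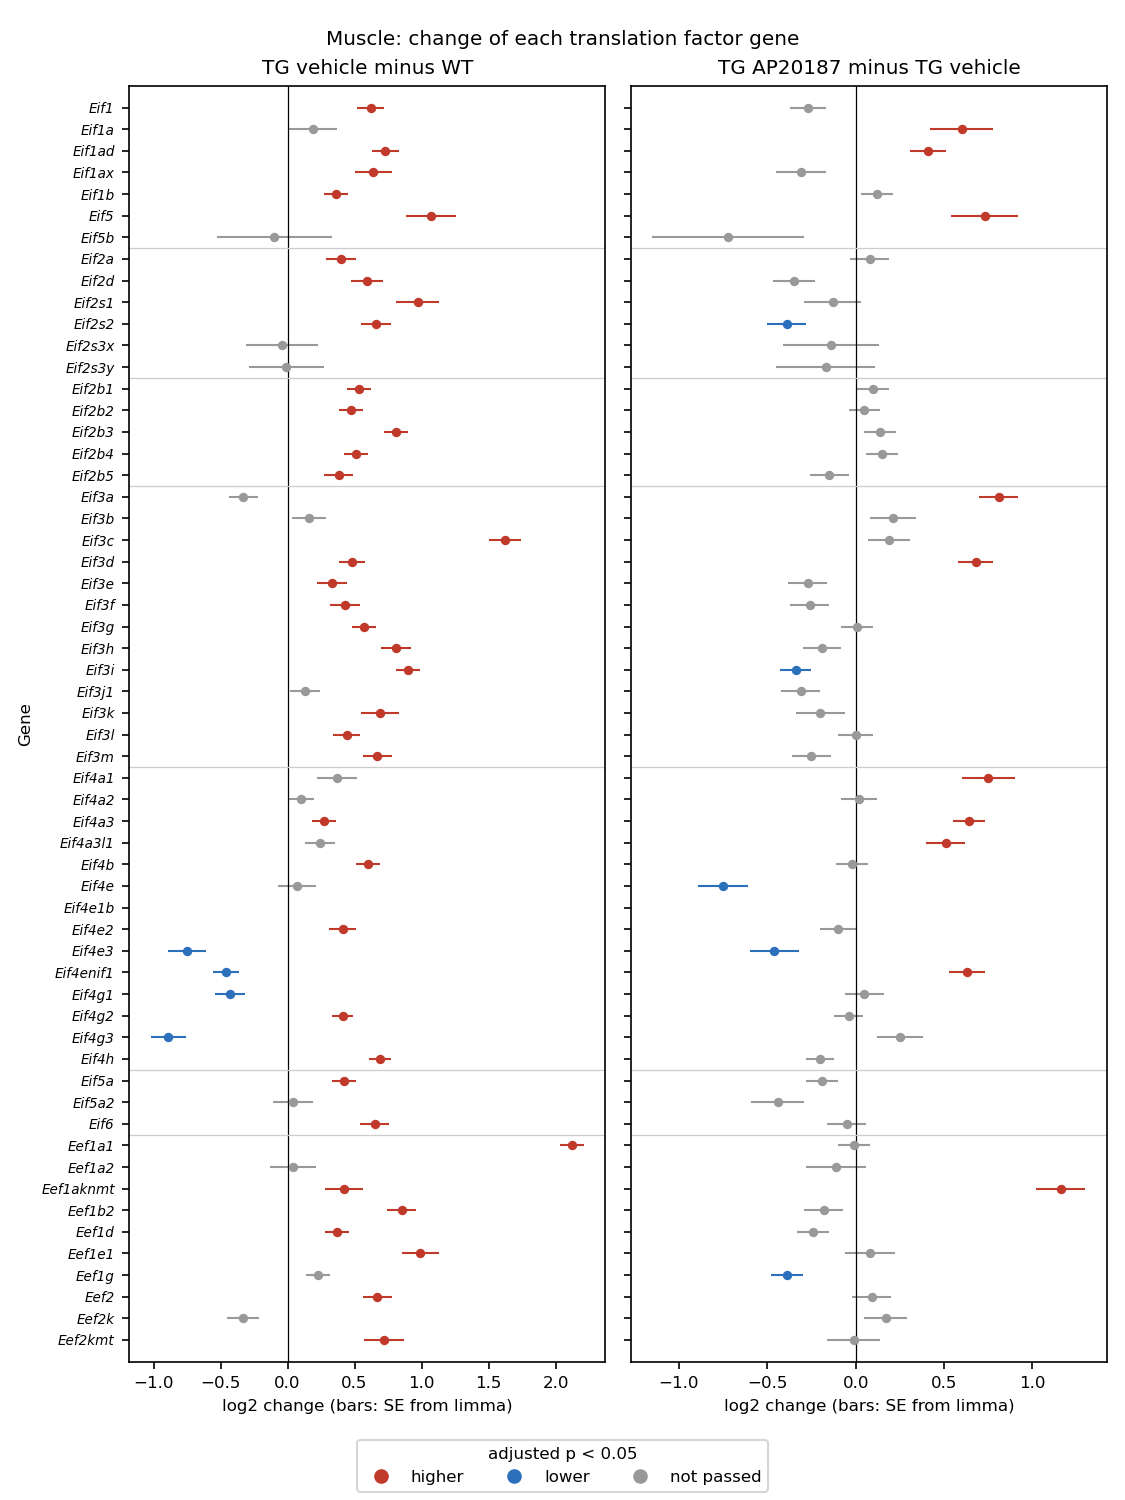
Log2 change with its SE for each tested gene, ordered by complex as in the heat map: transgenic vehicle minus wild type on the left and AP20187 minus vehicle on the right. Red points rose and blue points fell at an adjusted p under 0.05, 38 and 4 genes on the left and 10 and 5 on the right.

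The second comparison set vehicle-injected transgenic muscle against untreated wild type muscle. Here the set stood high. Of 57 genes 42 were called, against 38.3% of all genes tested. In this comparison 38 of 57 genes were called higher (66.7%, against 25.7% of all genes tested) and 4 lower (7.02%, against 12.6%). The median change was 0.42, against 0.09 over all genes. With quantile normalization these medians were 0.15 and 0.01, and with the percentile over probes detected on all arrays 0.25 and -0.08. Elongation factor gene Eef1a1 was 4.34-fold higher, the eIF3 gene Eif3c 3.08-fold and Eif5 2.10-fold, while Eif4g3, Eif4e3, Eif4enif1 and Eif4g1 were lower by 1.35-fold to 1.85-fold. The counts moved with the scaling: quantile normalization gave 20 higher and 6 lower (all genes 2602 and 2323), and a percentile over probes detected on all arrays gave 26 and 6 (all genes 2237 and 2743). Leaving out any single array gave fewer called factor genes, the fewest without transgenic vehicle replicate 2. Without that array the median change was 0.4, against 0.09 over all genes tested. Because genotype, injection, slide and scan session all separate these groups, they cannot be told apart. This comparison and the one above share the vehicle arrays, so that an error in those arrays enters both.

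**Figure D3:**
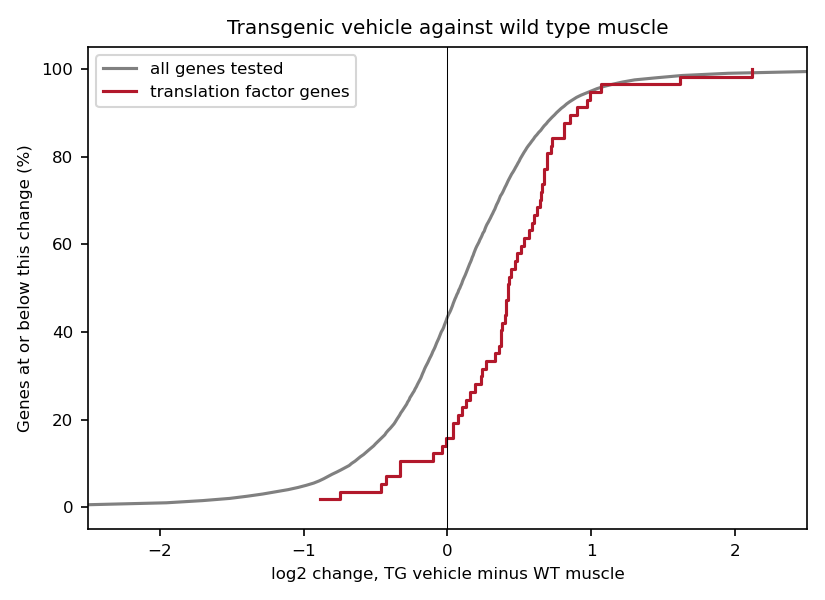
Cumulative share of genes (vertical axis, %) at or below each log2 change of transgenic vehicle minus wild type muscle (horizontal axis), for the 57 tested translation factor genes and for all 13543 genes tested. The curve of the factors lies to the right between -0.5 and 1, with medians of 0.42 and 0.09.

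The myoblast and myotube markers differed in the same comparison: 3 of 6 were higher (Chrna1, Myog and Myh3) and 2 lower (Myod1 and Myh8), with a summed level of 200 to 219 against 185 to 219. Macrophage markers gave 0 higher and 2 lower of 9 tested. Their part was not tested.

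All 5 eIF2B genes were called higher, and each stayed above 0 in the other 5 scalings tried, although with quantile normalization 2 of 5 were called. Eif2b3, the gamma subunit, read 1.91 and 1.91 in wild type and 2.66 and 2.77 in transgenic muscle, a change of 0.81 (SE 0.09, adjusted p = 0.000772), and its second probe gave 0.85. Eif2b1 changed by 0.53 and Eif2b4 by 0.51, with SE 0.09 each. Eif2b2 and Eif2b5 changed by 0.47 (SE 0.09) and 0.38 (SE 0.11). The call of Eif2b5 was lost without any single wild type or vehicle array (0.32 to 0.45), while those of Eif2b1 and Eif2b3 held in every alternative.

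Of eIF2 and the other tRNA-carrying factors, 4 of 6 were higher and 0 lower. Eif2s1 read 3.37 and 3.43 in wild type and 4.15 and 4.59 in transgenic muscle, a change of 0.97 (SE 0.16, adjusted p = 0.00265), but its dim second probe gave 0.11. Eif2s2 changed by 0.66 (SE 0.11, adjusted p = 0.00273) and was higher on its second probe too. Eif2s3x and Eif2s3y did not pass at -0.04 and -0.01 (SE 0.27 and 0.28). Start codon factors gave 5 of 7 higher: Eif5 read 3.97 and 4.28 in wild type and 5.08 and 5.31 in transgenic muscle, a change of 1.07 (SE 0.19, adjusted p = 0.00367), Eif1ad changed by 0.73 and Eif1 by 0.62. Eif1a and Eif5b had 0.19 and -0.10 and did not pass.

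In eIF3, 10 of 13 were higher and 0 lower, and 4 were higher and 1 lower with quantile normalization. Eif3c, a core subunit, read 6.61 and 6.35 in wild type and 8.17 and 8.05 in transgenic muscle, a change of 1.62 (SE 0.12, adjusted p = 0.000135), with 1.55 on its second probe. Eif3i (0.90) and Eif3h (0.81) followed, then Eif3k (0.69), Eif3m (0.67), Eif3g (0.57), Eif3d (0.48), Eif3l (0.44), Eif3f (0.43) and Eif3e (0.33). Calls lost without 1 array were Eif3d (0.39) and Eif3l (0.40) without wild type replicate 2, Eif3f without that array (0.31) or vehicle replicate 1 (0.37), Eif3k (0.56) and Eif3l (0.37) without vehicle replicate 2, and Eif3e (0.27 to 0.39) without any of the 4. Eif3a, which rose with AP20187, had -0.33 (SE 0.11, adjusted p = 0.0530) here, so it read lowest in transgenic vehicle muscle among the muscle groups. The other 2 uncalled genes had 0.13 and 0.16.

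eIF4 was divided, with 5 higher and 4 lower of 13, and 2 higher and 4 lower both with quantile normalization and with the percentile over detected probes. Eif4g3, a scaffold of eIF4F, read 4.05 and 4.06 in wild type and 3.32 and 3.01 in transgenic muscle, a fall of 0.89 (SE 0.13, adjusted p = 0.00203). Eif4e3 fell by 0.75 (SE 0.14, adjusted p = 0.00498), Eif4enif1 by 0.46 and Eif4g1 by 0.43. Without wild type replicate 1 the calls of Eif4enif1 (-0.44), Eif4g1 (-0.35) and Eif4g2 (0.40) were lost, and without vehicle replicate 2 that of Eif4g1 (-0.37). Eif4g2, which drives cap-independent initiation, was higher by 0.41 (SE 0.08, adjusted p = 0.00709), and the other 4 higher genes changed by 0.27 to 0.69. Eif4e, Eif4a1 and Eif4a2 had 0.07, 0.37 and 0.10 and did not pass. The brighter second probes of Eif4e and Eif4a2 gave 0.38 and -0.07, and Eif4e and Eif4a1 each passed under at least 1 alternative.

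Of the elongation genes, 7 of 10 were higher and 0 lower. Eef1a1 read 5.10 and 5.03 in wild type and 7.11 and 7.25 in transgenic muscle, a change of 2.12 (SE 0.09, adjusted p = 9.12e-06), and its second probe gave 1.89. The levels after AP20187 were 7.18 and 7.15. Processed copies of Eef1a1 are frequent in the genome, so the probes may also read them. Eef1a2, the adult muscle form, read 6.49 and 6.24 in wild type and 6.53 and 6.28 in transgenic muscle, with no call (0.04, SE 0.17, adjusted p = 0.867). Eef1e1, a scaffold of the tRNA synthetase complex rather than an elongation factor, changed by 0.99 (SE 0.14), Eef1b2 by 0.85 (SE 0.11), Eef2 by 0.67 (SE 0.11) and Eef1d by 0.37 (SE 0.09), whose call was lost at 0.33 to 0.40 without vehicle replicate 2 or either wild type array and whose direction turned with quantile normalization (-0.13). Eef1g (0.23) and Eef2k (-0.33) did not pass. Their second probes gave 0.44 and -0.46, and both genes passed under some alternatives.

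Poly(A)-binding genes gave 0 higher and 3 lower of 6 (Pabpn1 -0.45, Pabpc1 -0.31 and Pabpc4 -0.28), termination and recycling 2 higher of 8 (Pelo 0.35 and Abce1 0.31), and mitochondrial factors 2 higher (Mtif3 0.81 and Tsfm 0.62) and 1 lower of 10 (Mtif2 -0.34). Among 12 upstream controls, 2 were higher and 3 lower, with Eif4ebp1 at 2.29 (SE 0.11, adjusted p = 1.73e-05).

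**Figure D4:**
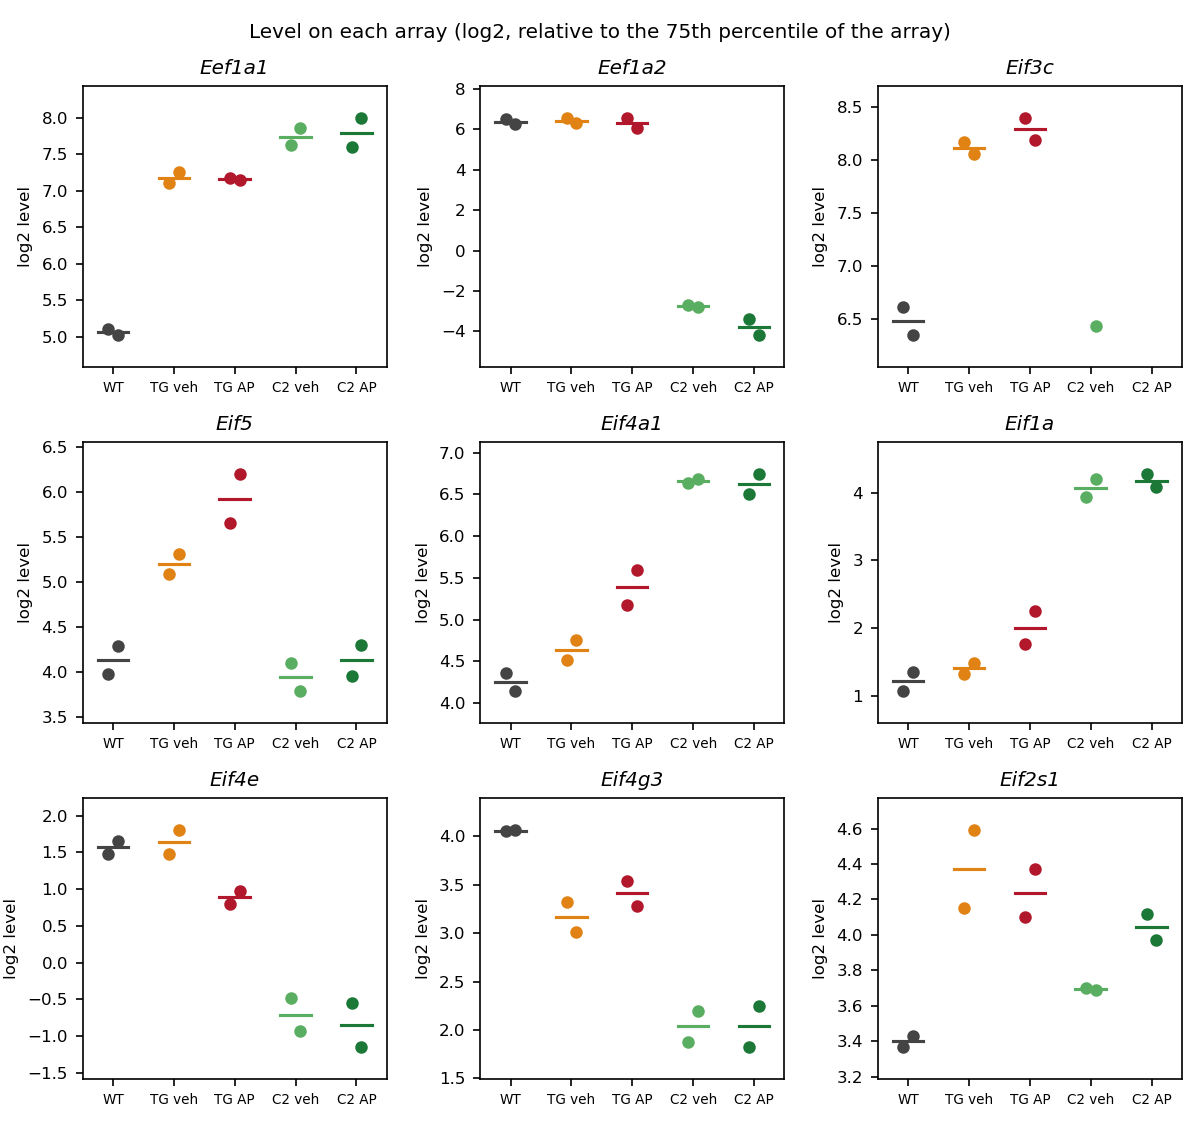
Level of 9 genes on each array (points) with the group mean (bar), in log2 units above or below the array's 75th percentile, for wild type (WT), transgenic vehicle (TG veh), transgenic AP20187 (TG AP), C2C12 vehicle (C2 veh) and C2C12 AP20187 (C2 AP). Eef1a1 and Eif3c stand higher in transgenic than in wild type muscle, Eif5, Eif4a1 and Eif1a rise and Eif4e falls after AP20187 in muscle, and Eef1a2 is at -2.71 or below in C2C12; vertical axes differ.

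In the C2C12 cells no factor gene was called between AP20187 and vehicle: 0 of 50 tested, against 0.482% of all genes tested (0.316% higher and 0.167% lower). By limma, 7 of the 50 had an unadjusted p under 0.05, against 1616 of all 11409 genes tested. Changes lay between -0.47 and 0.52, with a median of -0.02 against -0.06 over all genes. Quantile normalization called 38 of 50 higher, and also moved the median of all genes by 0.44 log2, to 0.38, with 4584 genes higher and 72 lower. The other alternatives called at most 2. C2C12 vehicle arrays lay in the first row of the slide and AP20187 arrays in the second, so row and treatment cannot be told apart.

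Eif2s1 read 3.70 and 3.69 after vehicle and 4.12 and 3.97 after AP20187 (0.35, SE 0.12, adjusted p = 0.231), and Eif2s2 had 0.30 (SE 0.12, adjusted p = 0.314). The eIF2B genes had -0.38 to 0.17, of which Eif2b1 had -0.38 (SE 0.12, adjusted p = 0.198). Eif4e read -0.48 and -0.93 against -0.55 and -1.14 (-0.14, SE 0.26), Eif4a1 had -0.04 (SE 0.13), Eif5 0.18 (SE 0.15), Eef1a1 0.06 (SE 0.15) and Eef2 0.02 (SE 0.15, 3 of 4 arrays). Eif1ad came closest to a call at 0.52 (SE 0.12, adjusted p = 0.0988). Of 6 adipocyte markers, 0 were well above background on both vehicle arrays and 5 on both AP20187 arrays. These 5 entered the test only through the AP20187 arrays, so a higher count after AP20187 was built into the filter. Of them 4 were called higher, against 0.316% of all genes tested. Their median of 3.45 starts from vehicle values not well above background on both arrays. The summed level was 7.72 to 11.0 against 0.770 to 1.03, and their part was not tested.

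The difference between the responses was tested directly, as the AP20187 change in C2C12 minus that in muscle. Of 54 genes 9 were called, against 12% of all genes tested: 1 was higher (1.85%, against 4.02% of all genes tested) and 8 lower (14.8%, against 7.98%). Eif4a1 differed by -0.79 (SE 0.21, adjusted p = 0.0349), Eif3d by -0.86 (SE 0.16, adjusted p = 0.00902) and Eef1aknmt by -1.15 (SE 0.25, adjusted p = 0.0144), and Eif2s2 by 0.68 (SE 0.16, adjusted p = 0.0192). For Eif4e the difference was 0.61 (SE 0.31, adjusted p = 0.218) and for Eif5 -0.54 (SE 0.27, adjusted p = 0.215), so a different response was not shown for either. With a percentile over unflagged spots the split was 6 higher and 3 lower, and with quantile normalization 23 and 2. None of the 9 calls held in every alternative. Without transgenic AP20187 replicate 2 the calls of Eef1aknmt (-1.02) and Eif4a1 (-0.58) were lost, and without replicate 1 that of Eif2s2 (0.57). Eif4a1 was also lost without any C2C12 array but AP20187 replicate 2 (-0.67 to -0.81) or either vehicle muscle array (-0.67 and -0.90), and Eif2s2 without vehicle muscle replicate 2 (0.62) or C2C12 AP20187 replicate 2 (0.65).

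Vehicle-treated C2C12 cells and vehicle-injected transgenic muscle share the fusion but differ in tissue, culture, animals of origin and scan session, which cannot be told apart. Of 54 factor genes 49 were called, against 78.6% of all genes tested. More stood lower than higher in the cells: 12 of 54 were higher (22.2%, against 38.5% of all genes tested) and 37 lower (68.5%, against 40.1%), with a median of -0.69 against -0.04. Quantile normalization gave 14 and 27 (median -0.34). Markers of several cell types were lower in the cells too. Skeletal muscle was lower for 6 of 6 tested (summed level 575 to 662 against 9010 to 9150) and macrophages for 8 of 9 with 1 higher (3.05 to 3.34 against 34.7 to 38.8). Endothelium was lower for 6 of 6 (10.9 to 13.2 against 47.3 to 48.4), adipocytes for 6 of 6 (0.770 to 1.03 against 256 to 355) and blood for 2 of 2. Fibroblast markers differed from these, with 3 of 5 higher and 2 lower (median 1.48, summed level 813 to 947 against 448 to 528). On both C2C12 vehicle arrays, 3 of 9 macrophage, 2 of 6 endothelium, 0 of 6 adipocyte and 1 of 2 blood markers were well above background. The others entered the test only through other groups, so a lower reading in the cells was largely built into the filter for them. Of 5 myoblast and myotube markers, 3 were higher and 2 lower. Their part in the factors' differences was not tested. eIF2 and its kin, the Y-linked Eif2s3y among them, were lower for 6 of 6 and eIF2B for 5 of 5. The direction of these 11 genes held in the other 5 scalings tried, but second probes turned the direction of Eif2s3x (1.20) and Eif2s1 (0.38). The call of Eif2s3x was lost without vehicle muscle replicate 2 (-0.44) or C2C12 vehicle replicate 1 (-0.77).

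Eef1a2 read 6.53 and 6.28 in muscle and -2.71 and -2.81 in the cells (-9.17, SE 0.23, adjusted p = 7.22e-11), above background on 1 of 2 vehicle C2C12 arrays and on 0 of 2 AP20187 arrays. Eef1a1 was 0.56 higher in the cells (SE 0.14, adjusted p = 0.00296). Eif2s3y, the Y-linked gamma subunit, was not well above background in C2C12 and at least 40.7-fold lower (adjusted p = 7.48e-09), counted from the lowest signal well above background on each array. The muscle came from males, and whether these cells carry a Y chromosome was not tested, so absence of the gene and lower expression cannot be told apart. Eif4e was lower by 2.34 (SE 0.22) on the probe used and by 0.70 on the second, Eif4e3 by 2.16 and Eif2d by 2.09. Eif4e3 was well above background on 1 of 2 vehicle C2C12 arrays. Besides Eef1a1, the genes that stood higher were Eif1a by 2.66 (SE 0.17, adjusted p = 7.78e-08), Eif4a1 by 2.03 (SE 0.15, adjusted p = 2.43e-07), Eif3a by 1.09, Eif4e2 by 1.04, Eif3d by 1.01, Eif4a3l1 by 0.84, Eif3l by 0.82, Eif4enif1 by 0.75, Eif4a3 by 0.71, Eef1b2 by 0.53 and Eif1ad by 0.42. Eif1ad is named after its values were seen, and its second probe gave -0.78. Near-identical copies such as Eif4a3 and Eif4a3l1, Eif1a and Eif1ax, Eif2s3x and Eif2s3y and Eif3j1 and Eif3j2 may share signal on these probes.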

How the data were processed

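RNA of 10 samples (5 groups of 2) was labelled with Cy3, 150 ng each per the labels' protocols, and read on 10 single-colour Agilent arrays. The deposited scanner files hold each spot's intensity on a linear scale, with the background already taken off. The software was Agilent Feature Extraction, in version 10.7.1.1 according to the headers of the scanner files. A deposited table of log2 values of the same arrays served as an alternative; its differences between arrays correlated with the scanner's at r of 0.9999 or more, and its baseline is unknown, with column medians of -0.58 to 0.80. Its scaling steps are not stated in the labels.

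Gene spots (59305 per array) were scaled as log2 intensity minus the array's 75th percentile, outlier-flagged spots (0.160% to 2.37%) were left out, and spots of a probe averaged. RefSeq accessions were matched to GRCm38.p6 symbols for names only, 26056 of 55681 probes receiving 19752 symbols. Where probes shared a gene, the brightest that had a value on every array stood for it. Genes entered a test when some group in the fit had them well above background on each of its arrays. limma 3.58.1 in R 4.3.3 (lmFit, eBayes with a variance trend, Benjamini-Hochberg) was fitted on the 6 muscle arrays, on the 4 C2C12 arrays, and on all 10 for the difference and for C2C12 against muscle. The fit was tested on simulated data. The members, lists and motifs were chosen with earlier results of these data known. Named whatever their test are the eIF2 and eIF2B subunits, the eIF4F core, Eif1, Eif1a, Eif5, Eif5b and the main elongation genes, and besides these the called genes, at most 10 largest per direction, called eIF3 genes and up to 4 called genes of each other list. The normexp alternative used the median spot signal, since the mean was not in the files. The slide block was not fitted separately: both transgenic groups share a session, the C2C12 arrays share another, and wild type lies alone. Leaving out each array, other scalings, filters, probe rules and fits were the other alternatives. The small number of arrays limits the precision.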

Additional observations from a re-analysis of the deposited data

Results flagged for a closer look

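For 9 of 54 genes the AP20187 change in C2C12 differed from that in transgenic muscle by limma at an adjusted p under 0.05. The difference (C2C12 change minus muscle change, log2) was -1.15 for Eef1aknmt, -0.86 for Eif3d, -0.79 for Eif4a1, -0.75 for Eif4enif1, -0.70 for Eif4a3l1, -0.61 for Eif4a3, -0.60 for Eif3a and -0.48 for Eif2b1, and 0.68 for Eif2s2. The first 7 were called higher with AP20187 in muscle and not called in C2C12. Eif2b1 was called in neither (0.10 in muscle and -0.38 in C2C12). The muscle value of Eif2s2 rests on a probe that its second probe does not match. No group had the 4 samples needed to test for a single outlying array.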

How the results depend on the processing

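Of the called genes, 5 of 15 with AP20187 in muscle (Eef1aknmt, Eif3a, Eif3d, Eif4a3 and Eif4enif1), 18 of 42 between transgenic vehicle and wild type muscle, and 34 of 49 between C2C12 and muscle kept their call and direction under every alternative, and 0 of 9 differences between responses did. Counts of called factor genes that moved by over 1.5 times were 9 with AP20187 in muscle without the variance trend, 26 against wild type with quantile normalization, 25 for the difference with quantile normalization and 3 without the trend. In C2C12 the count was 38 with quantile normalization, 2 with the percentile over unflagged spots (an alternative chosen after seeing the data), and 1 each with normexp, no filter on dim probes, the mean over probes and all 10 arrays in the fit. Over all genes C2C12 gave 360 (normexp), 4656 (quantile), 137 (no filter), 31 (no trend), 219 (unflagged spots) and 115 (all 10 arrays) in place of 55, and the difference 3179 (normexp) and 3859 (quantile) in place of 1691. Leaving out single arrays gave, for factor genes, 7 to 12 with AP20187 in muscle, 29 to 41 against wild type, 0 in C2C12, 3 to 7 for the difference and 46 to 49 between C2C12 and muscle, and over all genes 1802 to 3347, 3116 to 5250, 26 to 306, 856 to 1651 and 10318 to 11014.

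The labels give replicates of the same number no other link, and same-numbered deviations correlated at 0.19 to 0.35 among muscle groups and at 0.02 in C2C12. The file names number the transgenic AP20187 arrays differently from the labels, and that numbering was not tested. With the replicate number as a block, 23 of 57 factor genes were called with AP20187 in muscle: 11 higher and 12 lower (all genes 2438 and 3157 of 13541). Against wild type 39 were higher and 6 lower (all genes 4198 and 2229). The block gave 0 calls in C2C12 (106 over all genes). For the difference it gave 9 of 48, 1 higher and 8 lower (all genes 592 and 1159 of 13799).

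Directions were followed only for the genes named whatever their test and for called genes, and counted as turned where either setting gave a call. Other genes turned too: in C2C12, quantile normalization put 12 of 12 eIF3 genes above 0, against 4 of 12 in the main setting. Among the genes followed, directions that turned were, with quantile normalization, Eef1d against wild type (-0.13), Eif2b2 (0.84), Eif2b4 (0.50), Eif4a1 (0.86), Eif4g1 (0.70), Eif4g2 (0.63), Eif4g3 (0.46) and Eef1g (0.51) in C2C12, Eif2b1 (0.08), Eif2b2 (0.62), Eif4a1 (0.05), Eif3a (0.10) and Eif3d (0.09) for the difference, and Eif3h (0.01), Eif4h (0.22) and Eif5a (0.01) between C2C12 and muscle. With the mean over probes they were Eif2s3x (0.18) and Eif1ad (-0.18) between C2C12 and muscle, and with the brightest probe whatever its flags, chosen after seeing the data, Eif2s2 with AP20187 in muscle (0.05). The cause was not tested. Low signal limits Eif5b, Eif4e1b and the C2C12 values of Eef1a2, Eif4e3 and Eif2s3y.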
